A study of Mus musculus with 14 samples.

Results

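The cornified envelope is the crosslinked protein shell that replaces the plasma membrane of dying epidermal keratinocytes. Its structural genes were followed here in sorted cells of mouse skin: every gene whose symbol begins with Lce (late cornified envelope) or Sprr (small proline-rich protein), together with Lor (loricrin), Ivl (involucrin) and the fused S100-type genes Flg2, Rptn, Hrnr, Tchh, Tchhl1 and Crnn. Membership rested on the symbol alone, and 40 of the 22033 genes of the deposited tables were members. Flg was not analysed here. The epithelial cells were sorted by flow cytometry from the back skin of C57BL/6 mice. The 12 libraries used here form 6 groups of 2: bulge stem cells of telogen (resting) skin, interfollicular epidermis of telogen skin, and bulge stem cells of depilated skin, which the labels call activated, each at 2 and at 24 months of age. All groups are labelled wild type, and no agent other than depilation is named. Nothing in the labels ties the 2 libraries of a group to different mice or preparations, and every p-value below therefore reflects library-to-library spread that may be technical.

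Most of these genes sit together in the epidermal differentiation complex and are switched on late, in the spinous and granular layers above the basal layer. Loricrin and involucrin are crosslinked by transglutaminases into the envelope, small proline-rich proteins act as bridges between them, and late cornified envelope proteins are added near the end. Fused S100-type proteins such as filaggrin-2 and hornerin bundle keratins and contribute to the stratum corneum, while trichohyalin belongs mainly to the inner root sheath of the hair follicle. Bulge stem cells are the resting reserve of the follicle and are not known for cornifying.

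All 40 members lay on chromosome 3, between bases 91884193 and 93275902 of build mm9, a stretch of 1.39 megabases. They comprised 12 Lce1 genes, 4 Lce3 genes, Lce6a, 11 Sprr2 genes, 4 other Sprr genes, 6 fused S100-type genes, and Lor and Ivl. RefSeq promoter windows (build GRCm38.p6, the 250 bases before the annotated start) were available for 37 members. They were searched on both strands for TGANTCA, a broad form of the AP-1 binding motif, and for TATAAA, the TATA box. The letter N takes any base, as in TGAATCA of Sprr1b. AP-1 is a factor built of Fos and Jun proteins that is active in differentiating keratinocytes. The AP-1 letters occurred in 15 of the 37 windows (40.5%), against 6.75% of all 32851 windows of the same length, and the TATA letters in 18 (48.6%), against 12.4%. The families differed: 7 of 9 Sprr2 windows held both motifs, 0 of 11 Lce1 windows and 0 of 4 Lce3 windows held the AP-1 letters, and 2 of 11 Lce1 windows (Lce1d and Lce1m) held the TATA letters. Neighbouring copies arose by duplication and share sequence, so these windows are not independent. A Grainyhead motif (AACNNGTT) was found in 1 member (2.70%), against 3.64% of all windows, and a CACCC box (CCACCC) in 8 (21.6%), against 28.1%. The 6 windows below are shown because their genes differ in both letters and levels; capitals mark the AP-1 and TATA letters. On GRCm38.p6 they are Lor chr3:92083143-92083392 (minus strand), Ivl chr3:92573736-92573985 (minus), Sprr1b chr3:92438780-92439029 (minus), Sprr2h chr3:92385435-92385684 (plus), Lce1i chr3:92778900-92779149 (minus) and Lce1m chr3:93019062-93019311 (minus), each written 5′ to 3′ in the direction of transcription.
Lor: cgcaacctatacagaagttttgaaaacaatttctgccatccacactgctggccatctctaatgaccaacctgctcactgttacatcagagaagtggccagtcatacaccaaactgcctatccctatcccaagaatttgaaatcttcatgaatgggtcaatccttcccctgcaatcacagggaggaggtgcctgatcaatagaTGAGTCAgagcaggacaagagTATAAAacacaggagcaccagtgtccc
Ivl: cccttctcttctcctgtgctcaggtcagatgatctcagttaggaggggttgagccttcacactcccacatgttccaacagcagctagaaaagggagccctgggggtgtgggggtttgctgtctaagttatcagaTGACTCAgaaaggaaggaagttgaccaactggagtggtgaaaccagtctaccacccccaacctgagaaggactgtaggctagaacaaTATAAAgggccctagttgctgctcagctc
Sprr1b: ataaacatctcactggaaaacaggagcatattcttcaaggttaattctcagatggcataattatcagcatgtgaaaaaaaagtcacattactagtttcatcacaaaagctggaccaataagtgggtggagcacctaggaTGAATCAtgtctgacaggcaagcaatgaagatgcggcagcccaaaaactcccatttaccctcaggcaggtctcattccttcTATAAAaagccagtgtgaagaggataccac
Sprr2h: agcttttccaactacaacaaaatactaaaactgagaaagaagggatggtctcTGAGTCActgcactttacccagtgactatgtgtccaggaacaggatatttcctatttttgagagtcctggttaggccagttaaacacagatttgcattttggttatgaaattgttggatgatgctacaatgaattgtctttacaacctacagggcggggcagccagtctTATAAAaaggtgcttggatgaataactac
Lce1i: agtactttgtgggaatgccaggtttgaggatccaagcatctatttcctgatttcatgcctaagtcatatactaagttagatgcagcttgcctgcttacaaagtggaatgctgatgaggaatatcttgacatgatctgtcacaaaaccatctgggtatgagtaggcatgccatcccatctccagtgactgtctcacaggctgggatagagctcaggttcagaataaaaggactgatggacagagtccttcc
Lce1m: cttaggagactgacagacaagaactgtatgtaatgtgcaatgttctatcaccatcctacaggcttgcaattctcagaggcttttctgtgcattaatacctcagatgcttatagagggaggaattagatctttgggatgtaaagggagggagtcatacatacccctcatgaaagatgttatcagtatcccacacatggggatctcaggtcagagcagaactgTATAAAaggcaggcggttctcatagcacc
In Lor the AP-1 letters began 48 bases and the TATA letters 27 bases before the start. In Ivl these distances were 116 and 29 bases, in Sprr1b 111 and 30 bases, and in Sprr2h 198 and 29 bases. Lce1m held the TATA letters alone, 29 bases before its start, and Lce1i neither motif. A match is a description of letters and not a measured binding site, and no factor binding was measured.

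Levels are given as FPKM (Cufflinks' count of fragments divided by transcript length and library depth), summed over the transcripts of a gene. As length is divided out, levels of different genes can be compared per length. All values were divided by 1 constant for all libraries, which left the libraries on unequal scales. In activated bulge, FPKM of all genes summed to 637321 (replicate 1) and 428587 (replicate 2) at 2 months. At 24 months these sums were 649175 and 415523. Library depth, recovered from the deposited confidence bounds, ran from about 22700000 to 46300000 fragments on annotated transcripts. Of the 40 members, 25 reached 10 FPKM in at least 1 library and 5 stayed below 1 FPKM in all 12. The summed level of all members in telogen bulge was 67.0 and 522 FPKM at 2 months and 486 and 517 FPKM at 24 months, replicate 1 before replicate 2 as in all pairs of values here. In epidermis it was 529 and 85.9 FPKM at 2 months and 359.8 and 461 FPKM at 24 months. In activated bulge it was 3159.7 and 279 FPKM at 2 months and 1837 and 477 FPKM at 24 months. The 2 libraries with the highest sums were therefore replicate 1 of activated bulge at each age, while replicate 2 of the same groups lay within the range of the other libraries.

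**Figure D1:**
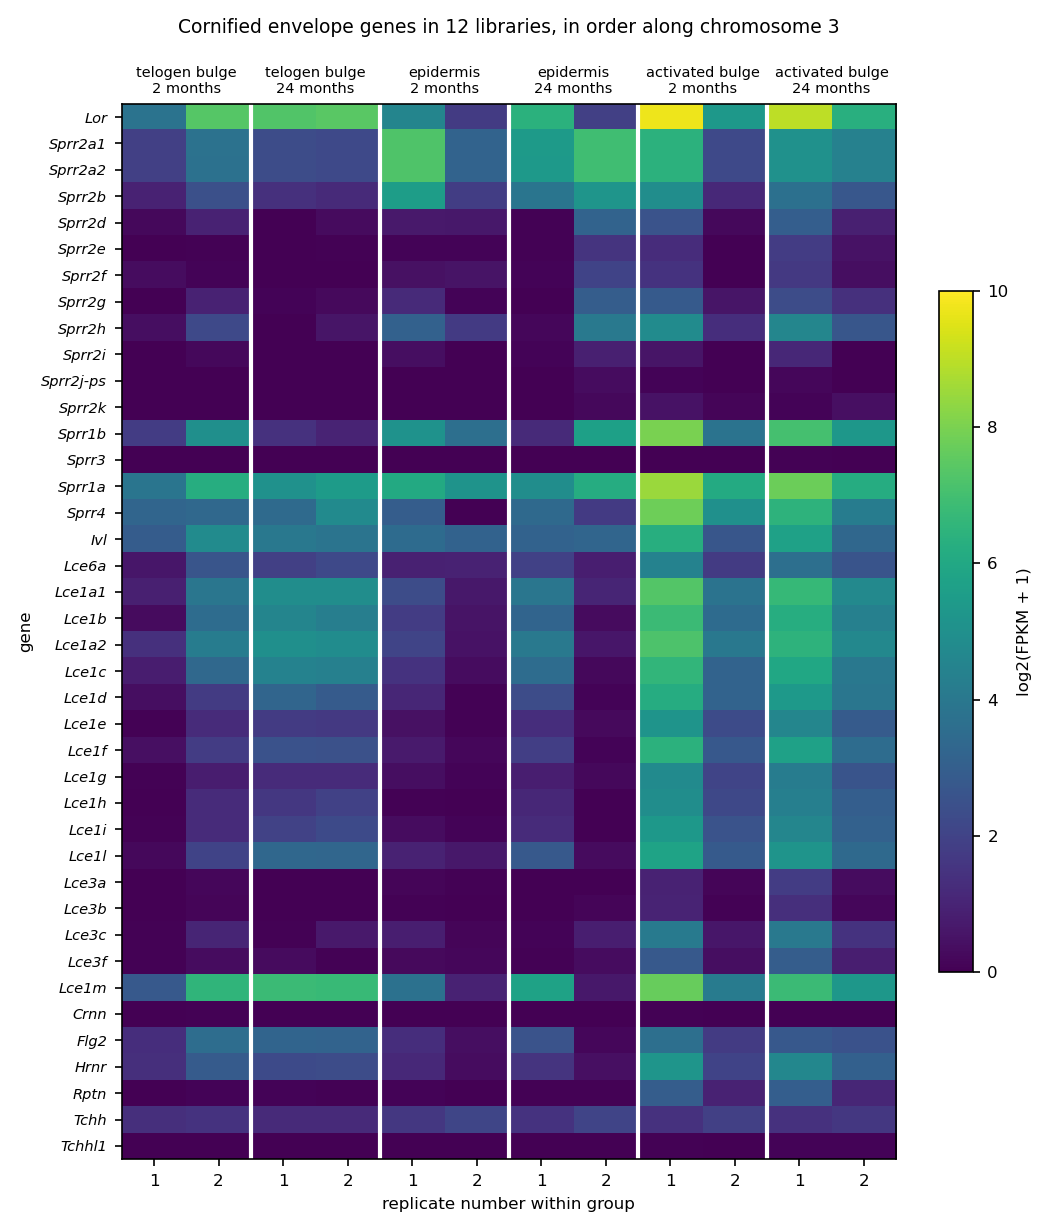
Level of each of the 40 cornified envelope genes (rows, in order along chromosome 3) in the 12 libraries (columns, by group and replicate number), as log2(FPKM + 1). The brightest columns are replicate 1 of activated bulge at 2 and 24 months, where Lor reached 848 and 512 FPKM, and 5 genes stay dark (below 1 FPKM) throughout.

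The summed level of 10 bulge stem cell markers (such as Krt24 and Lhx2) was 15839 to 18098 FPKM in telogen bulge, 2872 to 5766 FPKM in epidermis and 3041 to 3684 FPKM in activated bulge. Most of this sum was Krt15, a keratin also of basal epidermis, at 2352 to 3003 FPKM in activated bulge and 2853 to 5747 FPKM in epidermis. Lhx2, a factor of bulge stem cells, stood at 113 to 194 FPKM in activated bulge, 145 to 217 FPKM in telogen bulge and 0.809 to 2.45 FPKM in epidermis. Cd34, the surface marker of the bulge, stood at 58.5 to 91.3 FPKM in activated bulge, 938 to 1293 FPKM in telogen bulge and 0.372 to 5.71 FPKM in epidermis. All 6 suprabasal keratinocyte markers (Krt1, Krt10, Krtdap, Sbsn, Dmkn, Calml3) were at 1 FPKM or more in all 12 libraries, the bulge libraries included. In bulk RNA, fewer cells of a type and less RNA per cell cannot be told apart. Krt5 and Krt14, keratins of basal keratinocytes, were listed at 0 in several libraries beside values of at least 2896 FPKM in others and were not tested, and no member had such failed estimates.

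Loricrin was the member with the highest level of all. In telogen bulge Lor stood at 13.0 and 165 FPKM at 2 months and at 156 and 174 FPKM at 24 months. In epidermis it stood at 22.5 and 2.29 FPKM at 2 months and at 83.0 and 2.67 FPKM at 24 months. In activated bulge it stood at 848 and 39.3 FPKM at 2 months and at 512 and 79.3 FPKM at 24 months. Both libraries lay above epidermis in telogen bulge at 24 months and in activated bulge at 2 months, and the groups overlapped in the other comparisons. The libraries of a group differed by up to 31.1-fold, in epidermis at 24 months. Involucrin, an early scaffold of the envelope, varied less: Ivl lay between 5.37 and 27.3 FPKM in 10 libraries and reached 76.8 and 52.3 FPKM in replicate 1 of activated bulge at 2 and 24 months.

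Among the small proline-rich genes, Sprr1a was detected in every library, from 13.9 FPKM in telogen bulge at 2 months, replicate 1, to 361 FPKM in activated bulge at 2 months, replicate 1. Sprr1b, a gene known to respond to stress and injury of squamous epithelia, stood at 2.43 and 30.7 FPKM in telogen bulge at 2 months and at 1.66 and 1.02 FPKM at 24 months. In epidermis it stood at 33.4 and 11.4 FPKM at 2 months and at 1.27 and 50.8 FPKM at 24 months. In activated bulge it stood at 255 and 13.2 FPKM at 2 months and at 132 and 38.7 FPKM at 24 months. At 24 months all activated bulge values therefore lay above all telogen bulge values, and at 2 months the groups overlapped. Sprr4 is a short gene of 231 nt and was not tested; it was listed at 0 in replicate 2 of epidermis at 2 months, where 3 fragments would give 2.30 FPKM, and reached 219.9 FPKM in activated bulge at 2 months, replicate 1. Sprr3, which belongs to internal squamous epithelia, held a single fragment in 1 library.

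The most abundant Sprr2 genes (Sprr2a1, Sprr2a2 and Sprr2b) had their highest value in epidermis, while Sprr2h had it in activated bulge. Sprr2a1 stood at 149.8 and 8.04 FPKM in epidermis at 2 months and at 42.1 and 121 FPKM at 24 months. In telogen bulge it stood at 2.75 and 12.5 FPKM at 2 months and at 4.0 and 3.67 FPKM at 24 months. In activated bulge it stood at 85.1 and 3.62 FPKM at 2 months and at 32.3 and 20.0 FPKM at 24 months. Its twin Sprr2a2 had nearly the same values; 93.8% of the 50-base stretches of the Sprr2a1 transcript occur in another member, and most reads cannot be told apart between both genes. Sprr2h, a copy sharing no such stretch, had the same order of epidermis replicates, with 7.60 and 2.24 FPKM at 2 months and 0.135 and 15.5 FPKM at 24 months. Sprr2h reached 27.3 and 23.1 FPKM in replicate 1 of activated bulge at 2 and 24 months. Sprr2i, Sprr2j-ps and Sprr2k passed 1 FPKM in at most 1 library and were not tested.

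The late cornified envelope genes of the Lce1 cluster stood at a summed level of 10.3 and 155 FPKM in telogen bulge at 2 months and of 244 and 230.1 FPKM at 24 months. In epidermis the sum was 27.4 and 3.46 FPKM at 2 months and 119 and 3.22 FPKM at 24 months. In activated bulge it was 1057 and 98.3 FPKM at 2 months and 647 and 183 FPKM at 24 months. Lce1m, at the far end of the cluster, was the most abundant in telogen bulge, with 91.1, 111 and 106 FPKM in 3 libraries and 6.01 FPKM in replicate 1 at 2 months. Lce1i, in the middle of the cluster, stood at 0.0333 and 1.37 FPKM in telogen bulge at 2 months and at 2.96 and 3.72 FPKM at 24 months. In epidermis Lce1i stood at 0.268 and 0.0824 FPKM at 2 months and at 1.38 FPKM and listed at 0 at 24 months. In activated bulge it stood at 39.4 and 4.88 FPKM at 2 months and at 23.1 and 7.59 FPKM at 24 months, so that all 4 activated libraries lay above the other 8. Lce3 genes, known as injury-responsive, were low: Lce3c reached 16.4 and 15.7 FPKM in replicate 1 of activated bulge at 2 and 24 months and at most 1.76 FPKM elsewhere. Between Lce1 genes 0 (Lce1m) to 23.9% (Lce1c) of 50-base stretches were shared with another member, and 29 of the 40 members had fragment numbers that were not whole within 0.01 in some library, as reads shared among copies give.

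Of the fused S100-type genes, hornerin and filaggrin-2 had the highest means over the 12 libraries. Hrnr stood at 1.51 and 6.34 FPKM in telogen bulge at 2 months and at 3.70 and 3.97 FPKM at 24 months, at 1.2, 0.265, 1.85 and 0.320 FPKM in the epidermis libraries, and at 35.9 and 3.01 FPKM in activated bulge at 2 months and 23.4 and 7.36 FPKM at 24 months. Flg2 stood between 0.124 FPKM (epidermis, 24 months, replicate 2) and 11.6 FPKM (activated bulge, 2 months, replicate 1), with 11.1 FPKM in telogen bulge at 2 months, replicate 2. Rptn, repetin, was at 0.0747 FPKM or less in all telogen bulge and epidermis libraries and at 6.64, 0.919, 7.01 and 1.1 FPKM in the activated bulge libraries. Trichohyalin departed from the rest: Tchh lay between 1.28 and 3.25 FPKM everywhere. It exceeded Hrnr and Flg2 in epidermis at 2 months and in replicate 2 of epidermis at 24 months. The same held, narrowly, in replicate 1 of telogen bulge at 2 months. Crnn and Tchhl1, a relative of trichohyalin, held at most 4 fragments in a library.

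**Figure D2:**
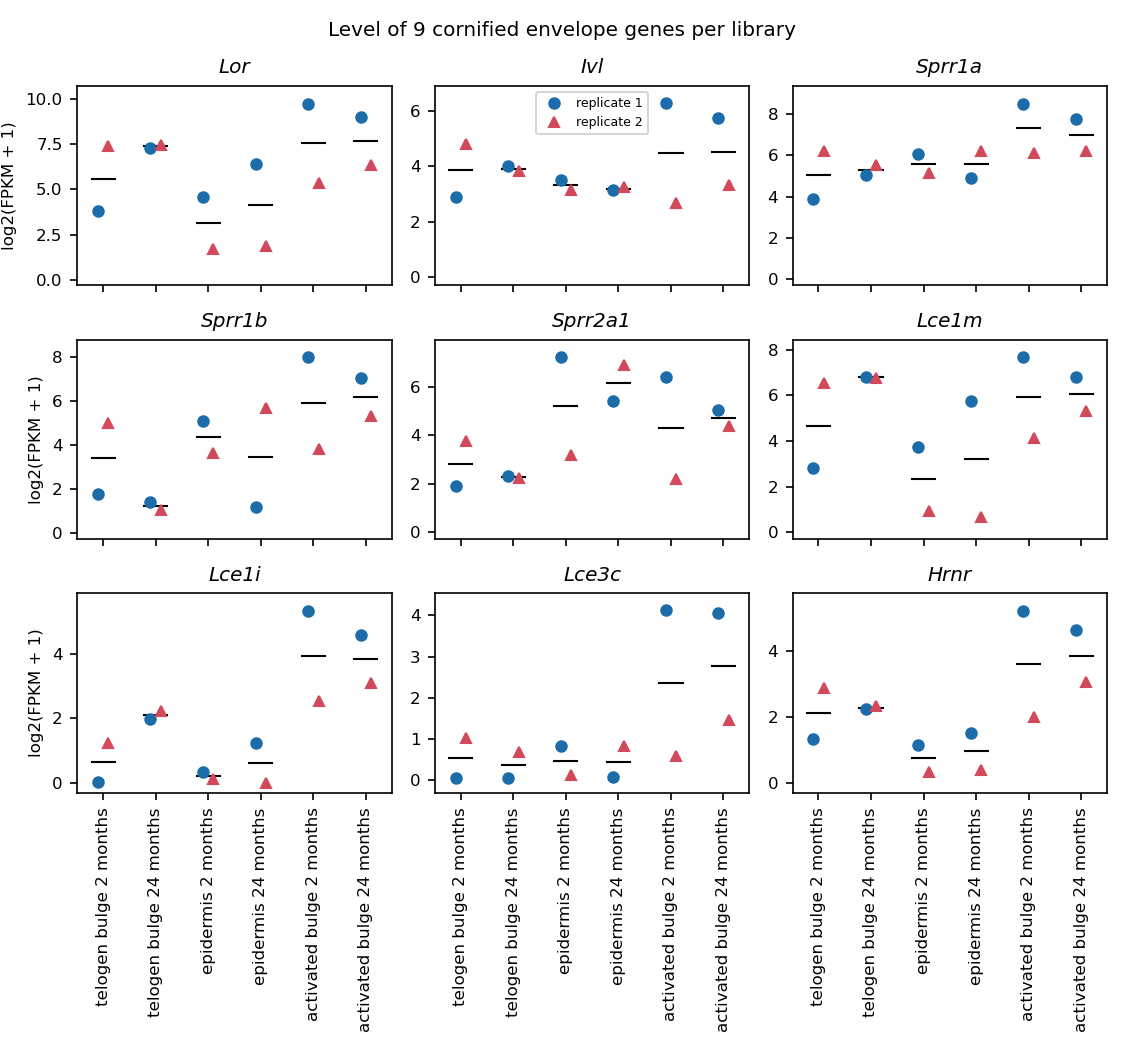
Level of 9 members, as log2(FPKM + 1), in each library: circles are replicate 1, triangles replicate 2 and the short line their mean, n = 2 in each of 6 groups. In activated bulge replicate 1 lies above replicate 2 in all 9 panels, and in Lce1i all 4 activated libraries lie above the other 8.

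Replicates of most groups lay far apart in these genes. On the log2(FPKM + 1) scale, 31 members passed the filter for testing, and the difference of replicate 2 from replicate 1 had a median of -3.0 over these 31 in activated bulge at 2 months and -1.59 at 24 months. At both ages 30 of the 31 were lower in replicate 2, against 62.7% of all 12462 genes tested at 2 months and 74.0% at 24 months, where the medians of all genes were -0.20 and -0.33. Differences of more than 2 downward were seen in 26 of 31 members at 2 months, against 2.60% of all genes, and in 6 of 31 at 24 months, against 0.786%. Tchh was the exception at both ages, with differences of 0.49 and 0.19. In telogen bulge at 2 months the order was the other way round, 30 of 31 being higher in replicate 2 with a median of 1.55, and 10 of 31 exceeded 2 upward, against 0.353% of all genes. Of all genes 49.4% were lower in replicate 2 there, with a median of 0.002. At 24 months the telogen bulge libraries were nearly equal, with a median of -0.03 and a range from -0.40 to 0.63.

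In epidermis the members did not move as a block at 24 months, while at 2 months most moved the same way. At 2 months 27 of 31 were lower in replicate 2 (median -0.80), against 64.5% of all genes (median -0.27). At 24 months 16 members were lower and 15 higher, with 56.9% of all genes lower. Members ran from -5.12 (Lce1m) to 4.51 (Sprr1b): all 12 Lce1 genes and Lor were lower in replicate 2, while all 8 tested Sprr2 genes, Sprr1a and Sprr1b were higher. In that replicate Sprr2 genes made up 68.3% and Lce1 genes 0.698% of the summed member level, against 27.3% and 33.2% in replicate 1. Over all genes the difference between replicates also went with transcript length, with a Spearman rho over genes, themselves no replicates, of 0.54 and 0.47 in activated bulge and 0.53 and 0.23 in epidermis at 2 and 24 months. Telogen bulge had a rho of -0.30 at 2 months and 0.10 at 24 months. Among the 3896 genes of 500 to 2000 nt the median difference was -0.58 and -0.60 in activated bulge and -0.70 and -0.27 in epidermis. For telogen bulge that median was 0.07 at 2 months and -5.05e-08 at 24 months. Whether length had a part in the members' differences was not tested. A term for replicate number over all 6 groups called 0 members and 0 of 12462 genes (0%) at an adjusted p under 0.05 with limma, with 2 members and 2945 genes at an unadjusted p under 0.05.

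**Figure D3:**
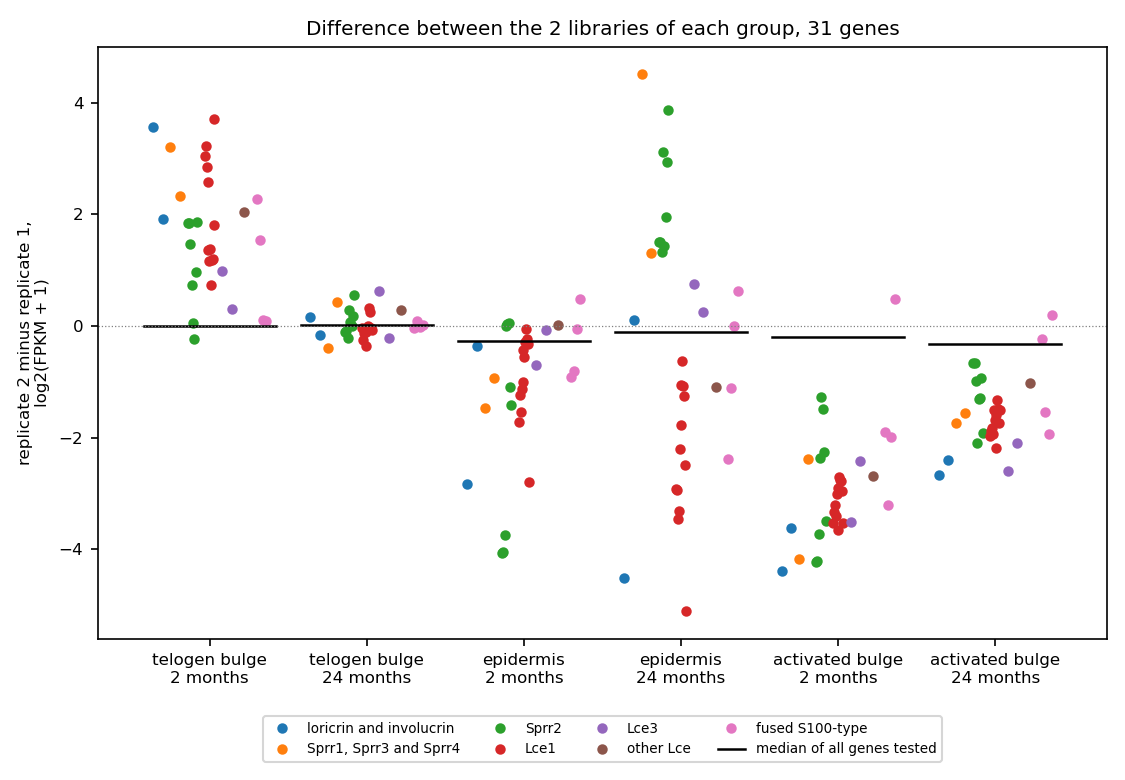
Replicate 2 minus replicate 1 in log2(FPKM + 1) for the 31 tested members (points, coloured by gene class) in each of 6 groups; the black line is the median of all 12462 genes tested. In activated bulge nearly all points lie below the line, in telogen bulge at 2 months nearly all above it, and in epidermis at 24 months Lce1 and Sprr2 genes lie on opposite sides.

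The comparison of telogen bulge with epidermis asks how far resting stem cells of the follicle and the surface epithelium differ. Loricrin, Lce1 and filaggrin-2 were measured at higher and Sprr2 at lower mean levels in the bulge, but 0 of 31 members passed the test (limma, Benjamini-Hochberg adjusted p under 0.05 over all genes) at 2 months, against 20.1% of all genes tested (13.0% higher and 7.16% lower), and 0 of 31 at 24 months, against 20.5% (12.8% higher and 7.74% lower). At an unadjusted p under 0.05 there were 0 and 3 of 31 members, against 3926 and 3982 of 12462 genes. At 24 months the log2 difference was -3.91 for Sprr2a1 (SE 1.43, adjusted p = 0.0856 by limma), 3.57 for Lce1m (SE 1.78, adjusted p = 0.201) and 3.24 for Lor (SE 1.85, adjusted p = 0.266). The telogen bulge and epidermis libraries did not overlap for 23 of 31 members at 24 months, 17 higher in bulge (all 12 Lce1 genes, Lor and Ivl among them) and 6 lower (5 of them Sprr2), against 68.9% of all genes (40.9% higher and 27.9% lower). At 2 months they did not overlap for 5 of 31, 2 higher and 3 lower, against 58.5% of all genes (36.8% higher and 21.6% lower). At 24 months 2 members were called without either epidermis library of 2 months, and 3 without epidermis replicate 1 of 24 months or either activated bulge library of 2 months, where between 2653 and 2805 genes were called in place of 2558. Members had a median log2 difference of 0.32 and 0.70 at 2 and 24 months, against 0.18 and 0.11 for all genes.

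Activation compares bulge cells from depilated skin with those from telogen skin. At 2 months 5 members rose, all from the run Lce1d to Lce1i, in which Lce1f was not called (3.50, adjusted p = 0.0632 by limma): Lce1i by 3.30 (SE 0.83, adjusted p = 0.0282 by limma), Lce1g by 3.0 (adjusted p = 0.0292), Lce1h by 2.90 (adjusted p = 0.0400), Lce1d by 3.63 (adjusted p = 0.0401) and Lce1e by 3.08 (adjusted p = 0.0412) on the log2(FPKM + 1) scale. The share called, 5 of 31, stands against 12.8% of all genes (6.59% higher and 6.17% lower). All 31 members had a positive difference, with a median of 1.82 against -0.07 for all genes. Rptn and Lce3f reached 1 FPKM in activated bulge libraries alone, so the filter itself favoured a positive difference for them at both ages. Members also vary together over the libraries, so their number is no count of separate results. At 24 months 0 of 31 passed, against 8.01% of all genes (4.11% higher and 3.90% lower), and 8 of 31 members had an unadjusted p under 0.05, against 3335 of 12462 genes; Sprr1b differed by 4.97 (SE 1.64, adjusted p = 0.0929), Rptn by 1.97 (SE 0.64, adjusted p = 0.0907) and Lce1g by 2.18 (SE 0.76, adjusted p = 0.105). Here 24 of 31 members did not overlap, 23 of them higher after activation, against 70.6% of all genes (31.3% higher and 39.3% lower), and the median difference was 1.68 against -0.10 for all genes; at 2 months 9 did not overlap, all higher, against 64.8% (29.2% higher and 35.6% lower). For the difference of activation between the ages limma called 0 of 31 members and 0 of 12462 genes, with 0 members and 98 genes at an unadjusted p under 0.05; the members' differences ran from -2.38 to 2.44 on the log2 scale with a median SE of 1.45. Hrnr differed by 1.5 on activation at 2 months (SE 0.93, adjusted p = 0.304), which became -0.10 without activated bulge replicate 1 and 3.10 without replicate 2.

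Counts of calls moved when a library was left out, a fit that takes the spread of the group with 1 library from the remaining groups. At 2 months 1590 genes were called in all. Without activated bulge replicate 1 there were 0 members among 1510 genes called, and without replicate 2 there were 11 among 834. Without telogen bulge replicate 1 or 2 of that age there were 0 members among 546 and 413 genes called. Without either telogen bulge library of 24 months there were 2 among 1029. At 24 months, where 998 genes were called in all, 2 members were called without activated bulge replicate 1 or 2 of 2 months, among 1136 and 1134 genes, and 1 without activated bulge replicate 2 of 24 months, among 493. With library totals made equal, 8 members were called at 2 months and 2 at 24 months, the median of all genes then lying at 0.28 and 0.32. Other measurements also differed between the libraries, some by group and some by replicate within activated bulge. Xist, expressed from the inactive X chromosome, was at 15.7 to 139.8 FPKM in the 4 activated libraries and at 0.278 FPKM or less in the other 8. Eif2s3y, a gene of the Y chromosome, was at 0.136 FPKM or less in the activated and at 17.8 to 48.3 FPKM in the other libraries. Both genes differ as they do between female and male mice, so activation cannot be told apart from sex. The labels state no sex. The summed suprabasal keratinocyte markers were at 12142 and 1669 FPKM in activated bulge at 2 months, 7837 and 3176 FPKM at 24 months, 7247 to 13643 FPKM in telogen bulge and 5273 to 7975 FPKM in epidermis, so that within activated bulge they were higher in replicate 1, as were the members. These markers did not order telogen bulge and epidermis alike. Krt1 was at 275 to 745 FPKM in telogen bulge and 1037 to 1355 FPKM in epidermis. Calml3 was at 990 to 1163 FPKM in telogen bulge and 10.6 to 21.3 FPKM in epidermis. Dmkn and Sbsn were also higher in telogen bulge, and Krt10 and Krtdap overlapped. The 6 fibroblast markers, all detected in activated bulge at 2 months, replicate 1, summed to 424 FPKM there and to 32.3 FPKM in replicate 1 at 24 months, with 9.38 and 6.96 FPKM in the 2 other activated libraries, 15.7 to 17.2 FPKM in telogen bulge and at most 0.624 FPKM in epidermis, where Lum was listed at 0 in 3 of 4 libraries. The 7 sebaceous gland markers summed to 196 and 100 FPKM in replicate 1 of activated bulge and to 50.7 and 42.4 FPKM in replicate 2, against 11.9 to 65.8 FPKM elsewhere. The 6 upper follicle markers found in the tables summed to 2778 to 4021 FPKM in activated bulge, 1658 to 2452 FPKM in telogen bulge and 446 to 1228 FPKM in epidermis. The part of any of these cells in the result was not tested.

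Against epidermis, activated bulge at 2 months had 6 members called, all higher, against 12.7% of all genes (9.13% higher and 3.54% lower): Lce1i by 3.72 (SE 0.83, adjusted p = 0.0145 by limma), Lce1h by 3.50 (adjusted p = 0.0163), Lce1g by 3.19, Lce1d by 4.14, Lce1e by 3.48 and Lce1f by 4.14. At 24 months 5 were called, Lce1d, Lce1e, Lce1g, Lce1h and Lce1i, by 2.88 to 3.46, against 12.6% of all genes (8.39% higher and 4.20% lower). Groups did not overlap for 19 of 31 members at 2 months, all higher, against 39.7% of all genes (27.5% higher and 12.2% lower), and for 20 at 24 months, 17 higher and 3 (Sprr2 genes) lower, against 43.5% (26.0% higher and 17.5% lower). Of the Sprr2 genes 0 of 8 tested were called at either age, with log2 values from -0.89 to 1.05 at 2 months and from -1.46 to 1.52 at 24 months and SEs of 0.55 to 1.43. The 4 activated libraries are shared with the comparison above. Xist and Eif2s3y separate them from epidermis as well, so here too the comparison cannot be told apart from sex. Rptn and Lce3f, which passed the filter through activated bulge libraries alone, are among the members that were higher without overlap at both ages. The filter itself favoured a positive difference for them. At 2 months 1579 genes were called in all. Without activated bulge replicate 1 there were 0 members among 1554 genes called, and without replicate 2 there were 16 among 1138. Without epidermis replicate 1 or 2 of that age there were 0 among 1181 and 1173. At 24 months 1570 genes were called in all, with 0 members among 1045 without activated bulge replicate 1 and 0 among 1188 without epidermis replicate 2 of that age. Member calls were between 1 and 3 without any of the other telogen bulge or epidermis libraries, among 1069 to 1664 genes, and 8 without activated bulge replicate 1 or 2 of 2 months, among 1730 and 1739.

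The comparison of 24 with 2 months gave 0 calls of 31 in telogen bulge, in epidermis and in activated bulge, and 0 of 12462 genes in each (0%) with limma, with 0 members and 182, 103 and 232 genes at an unadjusted p under 0.05. In telogen bulge the 12 Lce1 genes lay higher at 24 than at 2 months in every library, with log2 differences of 0.80 (Lce1g) to 2.50 (Lce1a1), while Sprr1b differed by -2.17 (SE 1.64); 15 of 31 members did not overlap between the ages, 12 higher and 3 lower, against 54.1% of all genes (26.8% higher and 27.3% lower). Within telogen bulge at 2 months the Lce1 sum of replicate 2 was 15.0 times that of replicate 1. In epidermis and in activated bulge 0 of 31 members were separated by age, against 9.20% and 17.0% of all genes. The median difference of members was 0.23 in telogen bulge, 0.54 in epidermis and 0.13 in activated bulge. The standard errors of members, 0.27 (Tchh) to 1.85 (Lor), exceeded the median of 0.32 over all genes in all but Tchh, so small changes with age were not detectable in these genes.

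Ratios within a library do not depend on its overall level of these genes. They were chosen after the values were seen and carry no test. Of the fragments assigned to Lce1 genes, Lce1d to Lce1i (6 neighbours) took 26.5% and 29.4% in activated bulge at 2 months and 26.8% and 26.9% at 24 months. In telogen bulge the share was 6.20% and 5.33% at 2 months and 7.97% and 8.10% at 24 months. In epidermis it was 9.0% and 9.26% at 2 months and 8.51% and 17.6% at 24 months, the last from 12 of 68 fragments (95% Wilson interval 10.4% to 28.4%). The intervals of the 4 activated libraries ran from 25.4% to 31.4% and those of telogen bulge from 3.79% to 9.97%; they cover counting error only and take split reads as counted. Lce1m took 21.4% to 26.4% of Lce1 fragments in activated bulge and 53.1% to 65.7% in telogen bulge. In epidermis it took 52.9% and 52.2% in replicate 1 at 2 and 24 months, and 33.3% and 22.1% in replicate 2, where only 54 and 68 Lce1 fragments were counted. These shares differed between activated and telogen bulge in all 8 bulge libraries, although the summed level varied 10.8-fold between replicates of activated bulge at 2 months. The run Lce1d to Lce1i holds the genes called higher on activation in these same libraries. Its larger share there describes these libraries and adds no support to the calls.

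**Figure D4:**
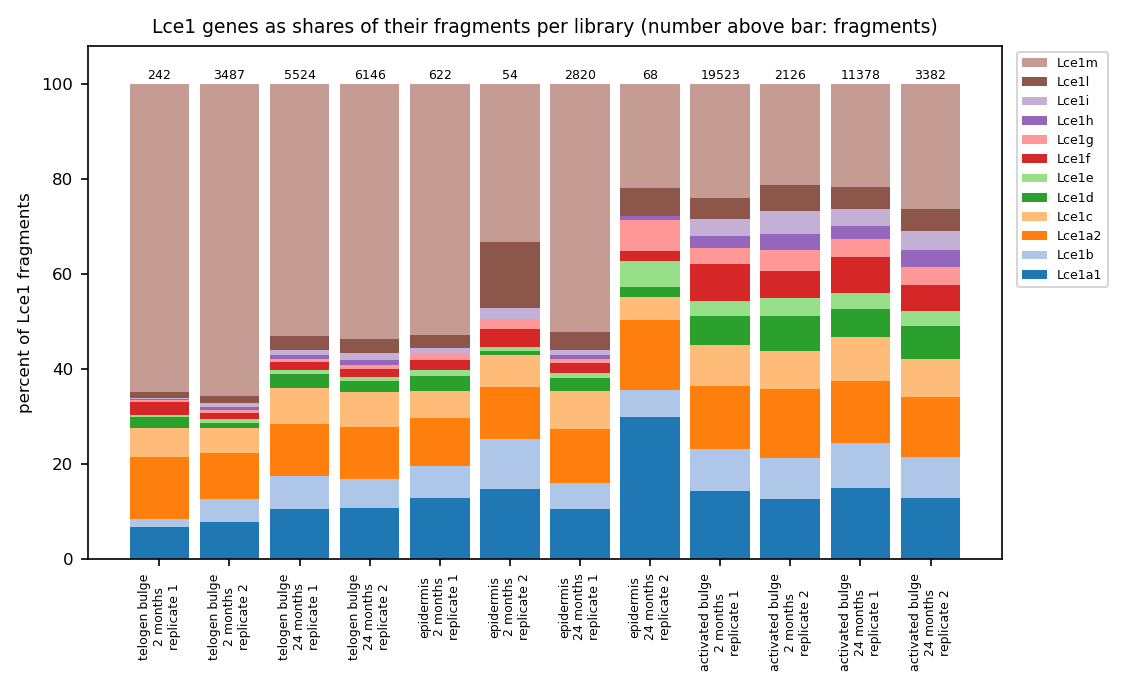
Share of each Lce1 gene in the fragments assigned to the 12 Lce1 genes, in percent, for each library; numbers above the bars are the Lce1 fragments of that library. Lce1m (top) takes 53.1% to 65.7% in telogen bulge and 21.4% to 26.4% in activated bulge, and the 2 epidermis bars of replicate 2 rest on 54 and 68 fragments.

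Set against Krt10, a keratin of the suprabasal layers, the Lce1 sum was 24.4 and 31 FPKM per 100 FPKM of Krt10 in activated bulge at 2 months and 30.0 and 24.0 at 24 months. It was 1.26 and 6.73 in telogen bulge at 2 months and 12.6 and 12.5 at 24 months, and 1.64, 0.189, 8.22 and 0.233 in the epidermis libraries. All 4 activated libraries lay above the other 8 on this scale, while in FPKM their Lce1 sums differed 10.8-fold and 3.54-fold between replicates. Hrnr behaved likewise, with 0.831 and 0.949 FPKM per 100 FPKM of Krt10 in activated bulge at 2 months and 1.09 and 0.965 at 24 months, against 0.0145 to 0.274 in the other 8 libraries. Lor per 100 FPKM of Krt10 stood at 19.6 and 12.4 in activated bulge at 2 months and at 23.7 and 10.4 at 24 months, near the 8.06 and 9.45 of telogen bulge at 24 months. It still lay above the other 8 libraries in all 4 activated libraries. Sprr1, Sprr3 and Sprr4 genes per 100 FPKM of Krt10 stood at 16.7 to 35.4 in activated bulge. Their highest values were 4.92 in telogen bulge and 9.13 in epidermis. Ivl per 100 FPKM of Krt10 stood at 1.19 to 2.43 in activated bulge, barely above the highest telogen bulge value of 1.18. The ratios that follow did not separate activated bulge from the rest. Sprr2 genes per 100 FPKM of Krt10 stood at 3.38 to 7.14 in activated bulge, 0.500 to 1.52 in telogen bulge and 1.2 to 22.8 in epidermis. Sprr1b per FPKM of Sprr1a stood at 0.193 to 0.706 in activated bulge and at up to 0.697 in epidermis. Hrnr per FPKM of Flg2 stood at 1.27 to 4.13 in activated bulge and at up to 2.58 in epidermis. Krt10 itself was at 4325 and 318 FPKM in activated bulge at 2 months and 2157 and 763 FPKM at 24 months.

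**Figure D5:**
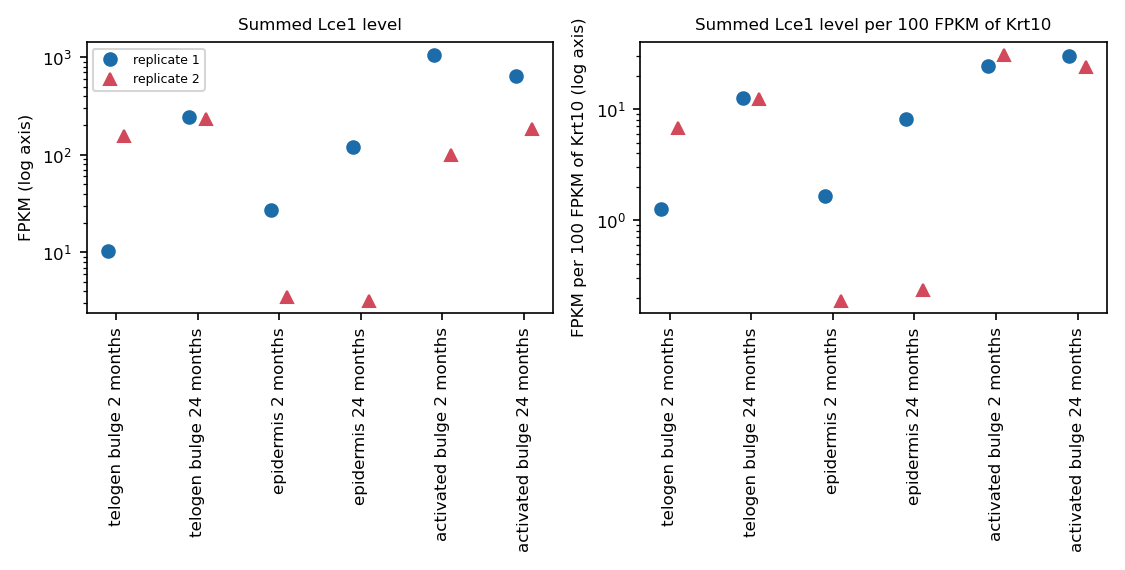
Summed Lce1 level in FPKM (left) and per 100 FPKM of Krt10 (right), both on log axes, in each library; circles are replicate 1 and triangles replicate 2. The activated bulge replicates stand 10.8-fold apart at 2 months on the left and at 24.4 and 31 on the right.

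Other genes of cornification, taken from 5 lists of pathway genes, did not share one pattern. Of all genes tested, 13.0% were higher and 7.16% lower in telogen bulge than in epidermis at 2 months. The list counts in this paragraph do not exceed these shares for that comparison. Those of the transcription regulators, which follow below, do so among the lower genes. In activation 12.8% and 8.01% of all genes were called at 2 and 24 months. In the rest of the epidermal differentiation complex 0 of 7 tested genes were called in activation or between bulge and epidermis; Crct1, a small gene beside the Lce cluster, ran from 1.42 FPKM in epidermis to 305 FPKM in activated bulge. Of 17 crosslinking and processing genes, 2 were higher and 1 lower in telogen bulge than in epidermis at 2 months. Tgm5, a transglutaminase that crosslinks envelope proteins, was at 559.6 and 591 FPKM in telogen bulge at 2 months against 5.08 and 4.51 FPKM in epidermis, a log2 difference of 6.64 (SE 0.30, adjusted p = 8.09e-07 by limma), and fell by 2.93 on activation (adjusted p = 3.65e-04). Tgm3, another transglutaminase of the epidermis, was lower in telogen bulge by -3.04 (adjusted p = 0.00328). Among 24 other envelope and suprabasal genes 1 was higher and 1 lower in telogen bulge than in epidermis at 2 months: Calml3, a calmodulin-like protein, was higher by 6.12 (adjusted p = 7.02e-06) and Sfn, the 14-3-3 sigma adaptor, lower by -1.97 (adjusted p = 0.0360). Of 19 barrier lipid genes 1 was called in that comparison, Degs2, a ceramide desaturase, higher in telogen bulge by 0.90 (adjusted p = 0.0382).

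Of 27 transcription regulators of differentiation, 2 were higher and 7 lower in telogen bulge than in epidermis at 2 months, against 13.0% and 7.16% of all genes. In activated against telogen bulge 7 were higher and 0 lower at 2 months, against 6.59% and 6.17% of all genes, and 4 were higher and 0 lower at 24 months, against 4.11% and 3.90%. Fosl1, a Fos-related partner in AP-1, was at 0.731 and 2.56 FPKM in telogen bulge at 2 months, 34.3 and 70.6 FPKM in epidermis and 95.2 and 100.2 FPKM in activated bulge, a rise of 5.31 on activation (SE 0.63, adjusted p = 6.83e-04 by limma). Prdm1 (Blimp1), a repressor active in terminal differentiation, rose by 2.82 (adjusted p = 1.51e-04). In activated bulge at 2 months Prdm1 stood at 13.6 and 17.5 FPKM, higher in replicate 2, where 30 of 31 members were lower. Ets1, a transcription factor, was lower in telogen bulge than in epidermis by -1.82 (adjusted p = 6.60e-04).

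The 8 genes outside the members whose log2 level followed the members' mean most closely over the 12 libraries were Ereg, Slc39a2, Il1f8, Atg9b, Slc5a1, Prss27, Nkpd1 and Smpd3, with Pearson r from 0.98 to 0.94. Ereg, the growth factor epiregulin, was at 18.8 and 1.63 FPKM in activated bulge at 2 months and 11.4 and 5.0 FPKM at 24 months and at most 3.09 FPKM elsewhere. Members correlated with their own mean from -0.33 (Tchh) over 0.39 (Sprr2a1) to 0.96 (Lce1e). These correlations describe 12 libraries that share their groups and replicate numbers, and carry no test.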

How the data were processed

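RNA of 12 libraries (6 groups of 2) was analysed; the 2 libraries of wounded epidermis were not used here. The submitters' processing notes name TopHat, Cufflinks and build mm9; versions are not given in the sources used here. As other values, inside annotation text, the authors deposited FPKM with confidence bounds for 28018 transcripts. These values lay 12533 to 18522 times above the usual scale and were divided by 16805. FPKM were summed per gene. Fragments were recovered from the bounds. Genes with FPKM of at least 1 in 2 of 12 libraries and a transcript of at least 300 nt entered limma 3.58.1 (R 4.3.3) on log2(FPKM + 1), which understates changes of low genes, with 1 mean per group, trend and two-sided contrasts. Of 22033 genes 12462 were tested; 84 with failed estimates (0 beside over 100 FPKM in the other library of the group) were left out. On simulated data the fit was tested before use. Named genes were Lor, Ivl, members reaching 10 FPKM, called members, up to 6 per class by mean FPKM, per list of other genes the 4 smallest p-values between telogen bulge and epidermis at 2 months, and the 8 genes most like the members' mean; ratios within a library and members named only as low were chosen after values were seen. The members and lists were chosen with earlier results of these data known. Normalization, filter, pseudocount, transcript choice, trend, block and left-out libraries were varied.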

Additional observations from a re-analysis of the deposited data

How the results depend on the processing

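With 2 libraries per group the member counts depended on the processing, and the cause was not tested. In activated bulge against telogen bulge at 2 months, 5 members were called; equal library totals gave 8, no filter on low values 0, a pseudocount of 5 gave 0, the 4 libraries compared alone 0, activated bulge at replicate 1 alone 11, epidermis at replicate 1 alone 3, and leaving out single libraries 0 to 11. At 24 months (0 called) these were 2 with equal totals, 1 without filter, 1 with a pseudocount of 0.1, 9 with the 4 libraries alone, 5 with library weights, 8 with activated replicate 1 alone, and 0 to 2 with single libraries left out. Against epidermis at 2 months (6 called) they were 13 with equal totals, 0 without filter, 1 with a pseudocount of 5, 11 with the 4 libraries alone, 0 with library weights, 17 with activated replicate 1 alone, 0 with epidermis replicate 1 alone, and 0 to 16 with single libraries left out. At 24 months (5 called) they were 2 with quantile normalization, 8 with equal totals, 1 without filter, 0 with a pseudocount of 5, 3 with the main transcript alone, 3 with eBayes without trend, 18 with the 4 libraries alone, 0 with library weights, 11 with activated replicate 1 alone, 0 with epidermis replicate 1 alone, and 0 to 8 with single libraries left out. For telogen bulge against epidermis at 24 months (0 called) the 4 libraries alone and library weights each gave 3, and leaving out single libraries 0 to 3. For age in telogen bulge library weights gave 2. The comparisons of age, of telogen bulge with epidermis at 2 months, and of replicate number kept 0 when single libraries were left out. Among the named genes Hrnr reversed, to -0.10 in activated against telogen bulge at 2 months without activated bulge replicate 1 (adjusted p = 0.941), and stood at 3.10 without replicate 2. Library weights and both replicate 1 settings were chosen after seeing the data. As a block, replicate number gave 8, 1, 11 and 8 calls in the 4 activated comparisons in the order above; the correlation of deviations exceeded 0.1 in 7 of 15 pairs of groups and was negative in 7, so the numbers did not pair the libraries over the whole series. Among the epidermis and activated bulge groups it exceeded 0.1 in 6 of 6 pairs (0.18 to 0.79), and in that comparison the block moved the calls from 6 and 5 to 11 and 8; pairs with a telogen bulge group ran from -0.58 to 0.11. No label says what the numbers mark. Fits that leave 1 library in a group take its spread from the remaining groups. Depth limits the low members: 5 stayed below 1 FPKM, and epidermis replicate 2 held 54 and 68 Lce1 fragments.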
